A study of Mus musculus with 10 samples.

Results

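The baseline transcriptome of long-term haematopoietic stem cells (LT-HSCs) was described from 4 RNA-seq libraries of control mouse fetal livers at E14.5 (embryonic day). They were chosen by their labels alone, as the libraries of genotype Tnfrsf11a+/+; Spi1f/f, and they are 4 of the 10 samples of the series. These controls lack the Cre allele at Tnfrsf11a, the gene of the receptor RANK, and both of their Spi1 alleles are floxed, so the gene of the transcription factor PU.1 carries loxP sites but is not cut by Cre. All mice were on the C57BL/6 background, and the controls came from the crosses that gave the Cre-carrying embryos, whose libraries are not compared here. The cells had been sorted as single live cells that lacked lineage markers of myeloid, NK, T, B and red cells, carried c-Kit, Sca1 and CD150, and lacked CD48. RNA was amplified with SmartSeq2, a full-length method that starts from oligo(dT), and reads were assigned to transcripts by pseudoalignment with Kallisto. The libraries keep their numbers 15416, 15417, 15418 and 15420, and values are given in that order throughout. The authors give n = 4 control embryos for these cells. The labels do not tie a library to an animal, so the spread described is that between these 4 samples.

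LT-HSCs are the rare cells that can rebuild the whole blood system over a lifetime. In the embryo they leave the aortic wall, where they arise from endothelium, and expand in the fetal liver, which at mid-gestation is the main organ of red cell production. There they lie among erythroblasts, hepatoblasts, macrophages, megakaryocytes and the lining cells of the liver sinusoids. PU.1 drives myeloid and lymphoid fates, whereas GATA1 drives the red cell and platelet fates and KLF1 the red cell fate.

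TPM, the number of transcripts of a gene in a fixed total of 1000000, corrects for transcript length and was summed over the transcripts of a gene, and levels of different genes were compared only on that scale. CPM, the same for counts without a length correction, from a table of counts per gene and scaled between libraries by the trimmed mean of M-values (TMM), was used for the spread of each gene between libraries. Total counts on genes were 14184429, 11152025, 18256010 and 7633446, and 11523 to 12936 genes had at least 10 counts in a library. After the 3 deeper libraries were thinned to the depth of 15420, the range was 11523 to 12051, so the number of genes detected hardly differed at equal depth. At 10 CPM by raw library totals, before TMM scaling, a library had 76 to 183 counts for a gene, a counting error of 7.40 to 11.4% (1 SD). No molecular identifiers were used, so such errors cover counting alone.

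The libraries were not alike. Globin transcripts took 0.212, 4.40, 36.1 and 0.710% of TPM, far more in library 15418 than in the rest. The 30 highest genes held 50% of the TPM of library 15418, whereas 213 to 239 genes were needed in the other 3. Library 15416 was set apart by many other genes. Its rank correlation of log2 CPM with the others was 0.678 to 0.752 across 9009 genes, which are not independent replicates, and that among the other 3 was 0.766 to 0.895. Library 15420 was the next most distant, at 0.678 to 0.855. Because TPM shares a fixed total, the globin of 15418 lowers its other levels, and with globin left out the highest of the 4 libraries became another for 6 of the 24 gene lists and the lowest for 6. Library 15418 was then the highest for 10 lists, against 4 before, and the lowest for 4, against 9. Over the 9009 genes on the CPM scale, libraries 15416, 15417, 15418 and 15420 were the highest for 31.6, 20.1, 18.3 and 30.03%. They were the lowest for 31.4, 13.5, 24.9 and 30.2%. These shares are only a rough background for the counts of list members below, most of which are by TPM over all members. Library 15418, for example, was the lowest for 22 of 25 translation factors by TPM and for 14 by CPM. In a bulk sample, fewer cells of a type and less RNA per cell cannot be told apart.

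The sorting markers gave a mixed check of the label. Kit, the receptor for stem cell factor and the c-Kit of the gate (chr5:75574916-75656722, GRCm38), was present at 46.3, 30.2, 12.8 and 26 TPM, a mean of 28.8 ± 13.8 (SD, n = 4). Ly6a, the Sca1 gene (chr15:74994877-74998031), reached 218, 40.1, 4.38 and 44.8 TPM. Slamf1, which encodes CD150, was low at 5.03, 10.2, 3.52 and 6.03 TPM. Library 15418 was the lowest of the 4 for all 3 selected genes, also on the TMM-scaled CPM scale, and with globin left out of the total their sum was 32.4 TPM there against 77.4 to 271 in the others, though Slamf1 was then lower in 15416, at 5.04 against 5.51 TPM. Ly6a has close relatives in the Ly6 family, and reads shared between such copies may be divided uncertainly.

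Of the 11 genes behind the excluded markers, 9 were under 10 TPM in every library. Ncr1 (NKp46), Cd3e and Ly6g were listed at 0 in all 4 libraries, and Cd3g was listed at 0 in all but 15418, where it was at 0.0467 TPM. Cd48 was at 1.07, 4.58, 7.18 and 0.408 TPM, and Itgam (CD11b) did not exceed 1.45 TPM. Ly6c1, one of the genes behind the Gr1 antigen and also a gene of some capillary endothelium, was at 307, 20.7, 0.511 and 22.1 TPM. Here library 15416 was far above the rest.

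Genes that mark blood stem cells were present in every library. Of 20 listed, 17 had at least 1 TPM in all 4, and their sum was 257, 783, 414 and 492 TPM. Esam, a junctional adhesion molecule shared by stem cells and endothelium, was the highest at 65.1, 316, 141 and 110 TPM. Vwf, the von Willebrand factor gene of platelet-biased stem cells and endothelium, was at 30.1, 46.1, 24 and 91.5 TPM. Cd34 was at 32.7, 73.3, 28.9 and 41.3 TPM, and Adgrg1, the adhesion receptor GPR56, was at 31.5, 60, 46.3 and 29.8 TPM. Regulators of self-renewal were lower. Mecom, which encodes EVI1, was at 1.83, 13.4, 5.17 and 12.7 TPM, and Procr, the endothelial protein C receptor gene, was at 3.29, 10.4, 9.46 and 15.4 TPM. Hlf was at 2.62, 4.93, 2.23 and 6.83 TPM and Hoxa9 at 1.83, 11, 6.55 and 2.86 TPM. Library 15416 was the lowest of the 4 for 12 of the 20 genes, and library 15417 the highest for 13. Mllt3, a regulator that maintains human stem cells in culture, went another way, with 43.0 and 52.0 TPM in libraries 15416 and 15418 and 21.1 and 18.3 TPM in the other two.

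Blood transcription factors were led by regulators of red cells, of platelets or of both. Klf1, the master regulator of adult globin genes, was at 424, 181, 320 and 34.5 TPM, Lmo2, a bridging protein of the stem cell and erythroid complexes, at 221, 126, 134 and 117 TPM, and Gata1 at 166, 67.4, 120 and 20.3 TPM. Gfi1b, a repressor needed for both lineages, was at 182, 77.2, 91.2 and 4.67 TPM. Library 15420 was the lowest for all 4 of these genes, and the range of Lmo2 was the narrowest. Runx1 and Gata2, which are needed for stem cells to form, did not exceed 3.91 and 9.57 TPM. Tal1 was steadier, at 24.1, 14.4, 24.2 and 16.7 TPM. The whole list of 26 factors summed to 1512, 970, 1155 and 494 TPM, with 22 factors at 1 TPM or more in every library, and with globin left out 15418 was the highest, at 1809 TPM against 498 to 1518.

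Spi1, the floxed gene (chr2:91082390-91115756), was at 6.46, 33.5, 32.9 and 12.6 TPM, from 83, 381, 678 and 54 estimated counts. With globin left out it was at 6.48, 35.0, 51.5 and 12.7 TPM, and on the CPM scale at 5.50, 31.4, 44.1 and 6.80, so libraries 15416 and 15420 were the low ones on each scale. Tnfrsf11a was at 0.124, 0.173, 0.381 and 1.70 TPM, from 9.81, 10.1, 17.9 and 41.1 estimated counts, so its level is imprecise in every library.

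Genes known from fetal stem cells were present but uneven. H19, an imprinted noncoding RNA that is shut down after birth, was at 19.5, 657, 472 and 346 TPM, and its neighbour Igf2, a fetal growth factor, was at 30.5, 118, 86.9 and 195 TPM. Library 15416 was the lowest for both. Hmga1, a chromatin protein of dividing fetal cells, was at 256, 241, 155 and 31.8 TPM, and Ezh2, the enzyme of the Polycomb complex that methylates histone H3, at 102, 58.0, 46.1 and 123 TPM. Lin28b, which sets the fetal programme by blocking let-7 microRNAs, was at only 7.2, 3.45, 3.62 and 3.22 TPM, and its targets Igf2bp1 and Hmga2 had means of 15 ± 5.25 and 12.8 ± 8.60 TPM (SD, n = 4). All but 1 of the 11 genes had at least 1 TPM in every library, and with globin left out they summed to 471, 1228, 1297 and 761 TPM.

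Genes used across blood cells were lowest in library 15416 for 8 of 12. Arhgdib, a regulator of small GTPases in blood cells, was the highest at 235, 738, 372 and 998 TPM. Ptprc, which encodes CD45, was at 0.726, 6.24, 4.24 and 8.77 TPM, so this pan-leukocyte gene was near the floor in library 15416. Cd47, the signal that keeps macrophages from engulfing a cell, varied least, at 159, 139, 139 and 142 TPM.

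**Figure D1:**
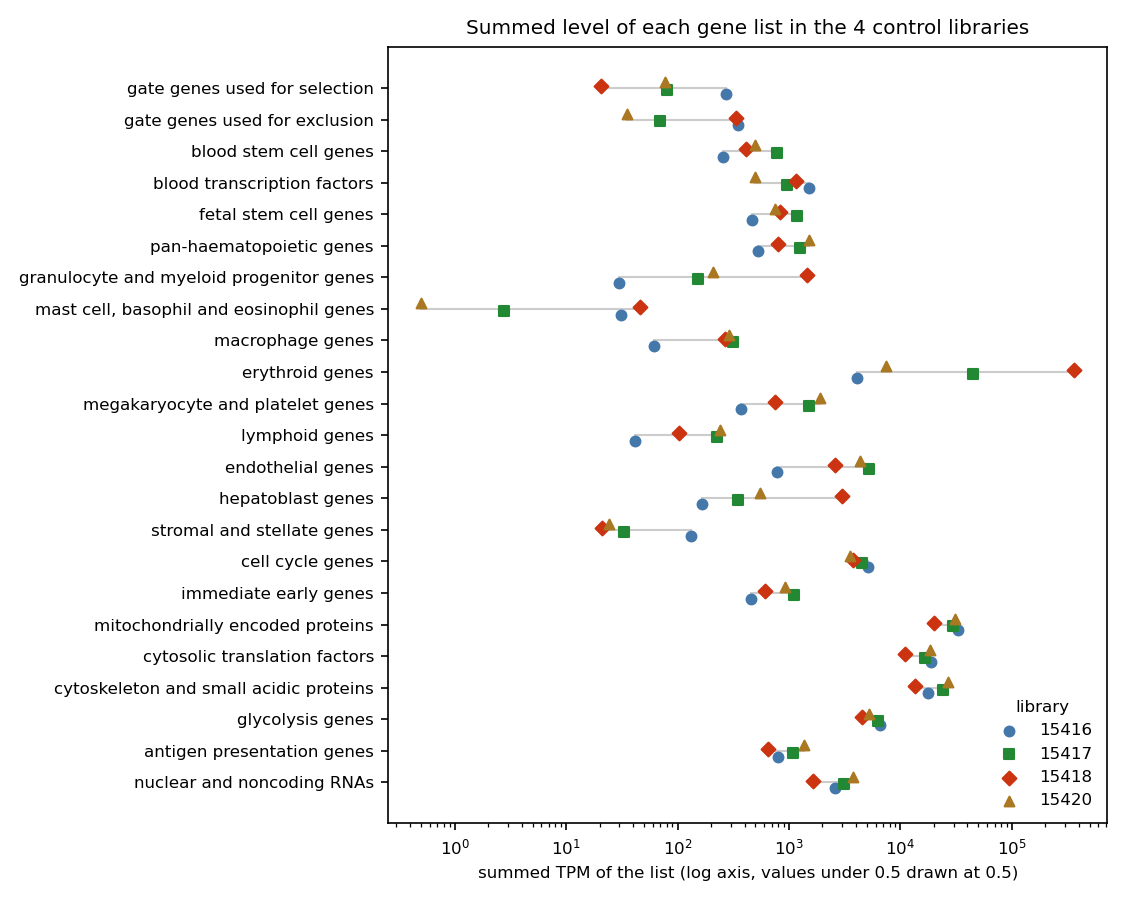
Summed TPM of each gene list (log axis) in each of the 4 control libraries, 1 point per library. The erythroid list runs from 4066 TPM in library 15416 to 364397 TPM in 15418, and the endothelial list lies above the blood stem cell list in every library.

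Endothelial genes were abundant. The 23 genes summed to 778, 5282, 2574 and 4357 TPM, which was 3.02, 6.75, 6.22 and 8.86 times the sum of the 20 blood stem cell genes (Esam is in both lists), and 22 of the 23 had at least 1 TPM in all 4 libraries. Egfl7, a protein that endothelium secretes and that stem cells also express, led at 165, 1164, 536 and 1098 TPM. Genes that mark the lining of liver sinusoids followed. The scavenger receptor Stab2 was at 1.36, 401, 181 and 387 TPM, the secreted protein Oit3 at 1.54, 401, 204 and 329 TPM, and the hyaluronan receptor Lyve1 at 3.61, 375, 176 and 346 TPM. These 3 genes were between 176 and 401 TPM in libraries 15417, 15418 and 15420 and under 4 TPM in 15416. Kdr, the receptor for VEGF, was at 7.17, 109, 53.4 and 109 TPM, whereas Cldn5, a tight junction gene, did not share the gap, at 219, 299, 160 and 186 TPM. The part of endothelial cells in these levels was not tested.

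Markers of other fetal liver cells were found at different levels in different libraries. Erythroid genes (20 matched of 21) summed to 4066, 44994, 364397 and 7459 TPM, and with globin left out to 1956, 1045, 5721 and 364 TPM. Alas2, the enzyme that starts haem synthesis in red cells, was at 2.00, 50, 599 and 4.91 TPM, and Slc4a1, the anion exchanger of the red cell membrane, at 0.392, 22.7, 278 and 2.82 TPM. Both were highest in library 15418. Car2, carbonic anhydrase, and Epor, the erythropoietin receptor gene, spread less, with Car2 at 1056, 506, 1572 and 213 TPM and Epor at 79.6, 62.6, 59.2 and 31.6 TPM. Library 15416, with the least globin, was thus not the lowest for these earlier erythroid genes.

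Adult globin dominated the erythroid list. Hba-a2 (chr11:32296489-32297298) was at 1374, 25129, 197055 and 4229 TPM and ranked 109, 3, 1 and 19 among all genes of its library. Hbb-bs, the major adult beta chain of this strain (chr7:103826534-103828096), was at 214, 9989, 88844 and 1168 TPM. The near-identical copies Hba-a1 (chr11:32283511-32284465) and Hbb-bt (chr7:103812524-103813996) were at 384, 5530, 44281 and 1044 TPM and at 144, 3247, 29000 and 566 TPM, and the division of reads within each pair is uncertain. Library 15418 was the highest and 15416 the lowest for each of the 4 genes. Summed adult alpha over adult beta globin was 4.91, 2.32, 2.05 and 3.04, so the ratio was nearest to balance where globin was most abundant. The embryonic chains Hba-x, Hbb-y and Hbb-bh1, made by the first red cells of the yolk sac, summed to 1.06, 102, 1564 and 91.0 TPM. Their share of globin TPM was 0.0499, 0.232, 0.434 and 1.28%, highest in library 15420 rather than in 15418.

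The promoter of Hba-a2, the most abundant gene by mean TPM, is shown because the sequence just before a globin gene's start holds the boxes through which red cell factors and the basal machinery are known to act. The 117 bases at chr11:32296372-32296488 (RefSeq, GRCm38.p6, plus strand) end just before the start of the gene in the Gencode annotation, and capitals mark a CACCC box, a CCAAT box and a box of the letters TATAA.
Hba-a2 promoter: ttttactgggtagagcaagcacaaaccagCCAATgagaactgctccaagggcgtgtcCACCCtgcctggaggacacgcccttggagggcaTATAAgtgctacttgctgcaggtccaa
Each of the 3 motifs was found once, and GATAA was not among the letters. Among the 120 bases before the start of 32851 RefSeq promoters, counted on both strands, CACCC was present in 31.7%, CCAAT in 21.3%, TATAA in 11.8% and GATAA in 10.5%, and 0.688% held the first 3 together. The motif set was completed after the sequence was seen, so the matches describe this window and nothing else.

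Granulocyte and hepatoblast genes followed the same library as globin. S100a8, a calcium-binding protein of neutrophils, was at 1.22, 14.2, 435 and 11.8 TPM, Mpo, the myeloperoxidase of primary granules, at 0.515, 7.72, 337 and 3.44 TPM, and Elane, neutrophil elastase, at 0, 2.14, 135 and 0 TPM. Library 15418 was the highest for 12 of the 13 granulocyte genes and 15416 the lowest for 12, with sums of 29.9, 161, 2275 and 211 TPM when globin was left out. Lyz2, the lysozyme of granulocytes and macrophages, was an example of a flatter gene, at 22, 97.3, 111 and 133 TPM. The liver secretory genes Apoa2 and Afp (alpha-fetoprotein) were at 22.2, 89.5, 615 and 119 TPM and at 23.4, 62.1, 479 and 113 TPM. Alb, which encodes albumin, was at 20.8, 46.4, 432 and 84.1 TPM, and Trf, transferrin, at 36.3, 47.7, 412 and 52.8 TPM. Library 15418 was the highest for 18 of the 20 hepatoblast genes, and 15416 the lowest for 16, but none of these 4 was absent from any library. With globin left out, the list summed to 166, 366, 4727 and 551 TPM.

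Macrophage and megakaryocyte genes were also lowest in library 15416, for 13 of 20 and 13 of 16. Among 20 macrophage genes, Mrc1, a mannose receptor also made by sinusoidal endothelium, was at 0.484, 77.6, 30.1 and 105 TPM, the haem-degrading enzyme Hmox1 at 1.76, 71.0, 64.6 and 57.2 TPM and the complement gene C1qb at 6.11, 62.8, 37.8 and 63.2 TPM. The receptor gene Csf1r was at 2.49, 6.59, 10.5 and 5.77 TPM. Adgre1, which encodes F4/80, was at 0.0616, 0.910, 7.84 and 0.0372 TPM. These genes were highest in library 15418, unlike C1qb. Library 15418 was the highest for 10 of the 20 macrophage genes, and with globin left out it also had the highest sum, 418 TPM against 61.3 to 330. The platelet chemokine Pf4 was at 124, 587, 223 and 778 TPM, its relative Ppbp at 17.5, 161, 64.1 and 272 TPM, and Itga2b, the CD41 integrin of megakaryocytes and early stem cells, at 31.9, 133, 50 and 150 TPM. The 16 megakaryocyte genes summed to 370, 1515, 751 and 1887 TPM.

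Lymphoid, mast cell and stromal genes were scarce. Of 19 lymphoid genes, 7 were listed at 0 in all 4 libraries (among them Rag1, Dntt and Pax5), and most of the sum of 41.8, 224, 104 and 241 TPM was Il2rg, the common cytokine receptor chain, at 32.2, 178, 73.5 and 179 TPM. The 11 genes of mast cells, basophils and eosinophils summed to 30.9, 2.75, 46.3 and 0 TPM. Different members made up that sum, as the mast cell protease Cma1 was at 14.8 TPM in library 15416 and 0 elsewhere, and Prg2, the eosinophil major basic protein, was at 30 TPM in 15418 and at 0, 1.67 and 0 TPM in the rest. Stromal and stellate genes summed to 132, 32.8, 21.1 and 24.5 TPM. The matrix proteoglycan Dcn was at 64.7, 11.3, 2.04 and 3.81 TPM and the stem cell niche chemokine Cxcl12 at 36.6, 3.95, 3.10 and 2.80 TPM, with library 15416 the highest for both.

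Cell cycle genes were present throughout and among the least variable lists. All 32 had at least 1 TPM in every library, 25 had at least 10 TPM, and the sum was 5148, 4531, 3743 and 3559 TPM, or 5166, 4746, 5862 and 3589 TPM with globin left out, where 15418 became the highest. Cdk4, the G1 kinase, was at 759, 860, 481 and 614 TPM, the mitotic activator Cdc20 at 375, 336, 207 and 232 TPM, the mitotic cyclin Ccnb1 at 346, 265, 244 and 217 TPM and the replication helicase subunit Mcm3 at 321, 250, 172 and 302 TPM. Immediate early genes, which respond within minutes to handling and growth signals, summed to 458, 1104, 604 and 915 TPM. Their leading members were Nfkbia, the inhibitor of NF-kappaB, at 126, 262, 156 and 368 TPM, and the phosphatase Dusp1 at 38.3, 277, 135 and 164 TPM. Next came Myc, at 136, 87.4, 52.4 and 49.9 TPM and so highest in 15416, and the AP-1 subunit Fos, at 24.8, 113, 43.3 and 81.0 TPM. Library 15416 was the lowest for 17 of the 22. Xist was at 5.14, 7.62, 4.38 and 6.75 TPM while Y-linked Ddx3y was at 1.91, 0.458, 0.240 and 1.69 TPM. Reads were thus assigned to both Xist and Y-linked genes in each library, but the Y-linked levels were low. Ddx3y was under 1 TPM in libraries 15417 and 15418. Eif2s3y, also Y-linked, had only 33, 19, 9 and 9 estimated counts. The Y-linked levels are therefore imprecise, and whether any library held cells of both sexes was not tested.

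Housekeeping lists differed by 1.45 to 2.30 times between their highest and lowest library, and with globin left out by 1.07 (mitochondrial proteins), 1.09 (translation factors), 1.34 (glycolysis), 1.48 (noncoding RNAs), 1.51 (cytoskeleton) and 1.70 times (antigen presentation). The 13 mitochondrially encoded proteins summed to 33041, 29613, 20042 and 30967 TPM, and with globin left out the 4 sums lay between 31017 and 33157 TPM. Translation factors summed to 18739, 16557, 11058 and 18499 TPM, the cytoskeleton and small acidic proteins to 17686, 24236, 13500 and 26654 TPM, and glycolysis genes to 6525, 6316, 4496 and 5227 TPM. For glycolysis, library 15418 was the lowest there and the highest with globin left out, at 7043 TPM. Antigen presentation genes, led by the MHC class I light chain B2m at 278, 531, 262 and 619 TPM, summed to 801, 1095, 643 and 1355 TPM. Nuclear and noncoding RNAs summed to 2612, 3107, 1635 and 3760 TPM, and held H19, described above, and Malat1, a nuclear speckle RNA, at 398, 1074, 422 and 1743 TPM.

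By class, 56.7, 56.6, 38.8 and 58.0% of TPM was in protein-coding genes other than globin, ribosomal and mitochondrial ones. The 83 cytosolic ribosomal proteins took 12.4, 9.32, 6.48 and 11.7%, and mitochondrial transfer RNAs took 12.1, 9.71, 7.22 and 7.30%. The latter rests on few reads. Transcripts with an effective length under 75 bases held 8.81 to 14.7% of TPM but only 0.0420 to 0.0730% of the estimated counts. Pseudogenes took 7.66, 9.77, 4.47 and 10.8%, with a single processed pseudogene, Gm19220, at 17448, 32798, 3849 and 7197 TPM. Reads that such copies share with their parent genes may be divided uncertainly.

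The top of the ranking was held by globins, short mitochondrial RNAs and the translation machinery. Of the 25 highest genes by mean TPM, 4 were adult globins and 5 were mitochondrial transfer RNAs, of which mt-Ts1 was at 28751, 26264, 21926 and 23781 TPM and mt-Tp at 34609, 21463, 15302 and 19163 TPM, followed by mt-Tq, mt-Tl1 and mt-Tc. CT010467.1, an rRNA gene on chromosome 17, and AY036118, a noncoding gene that overlaps it, had means of 10478 and 10203 TPM and lie on the same strand, so the division of reads between them is uncertain. The other mitochondrial entries were mt-Cytb and mt-Atp6, at 6453 ± 2152 and 4399 ± 899 TPM (SD, n = 4). The remaining coding genes included the ferritin chains Ftl1, at 3426, 6290, 6425 and 6041 TPM, and Fth1, at 2853, 3672, 3208 and 5329 TPM, the elongation factor Eef1a1, at 5849, 5033, 3308 and 7624 TPM, the chaperone Hspa8, at 5807, 4019, 2338 and 3414 TPM, the ribosomal proteins Rps27 and Rps19, and the cyclophilin Ppia. The pseudogenes or predicted genes Gm47551, Gm29216 and Gm10925 were also among the 25. Among the 100 highest genes of each library, 62 were shared by all 4 and 150 were in at least 1. The shared genes held 26 ribosomal proteins and no globin, since Hba-a2 itself ranked 109 in library 15416.

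**Figure D2:**
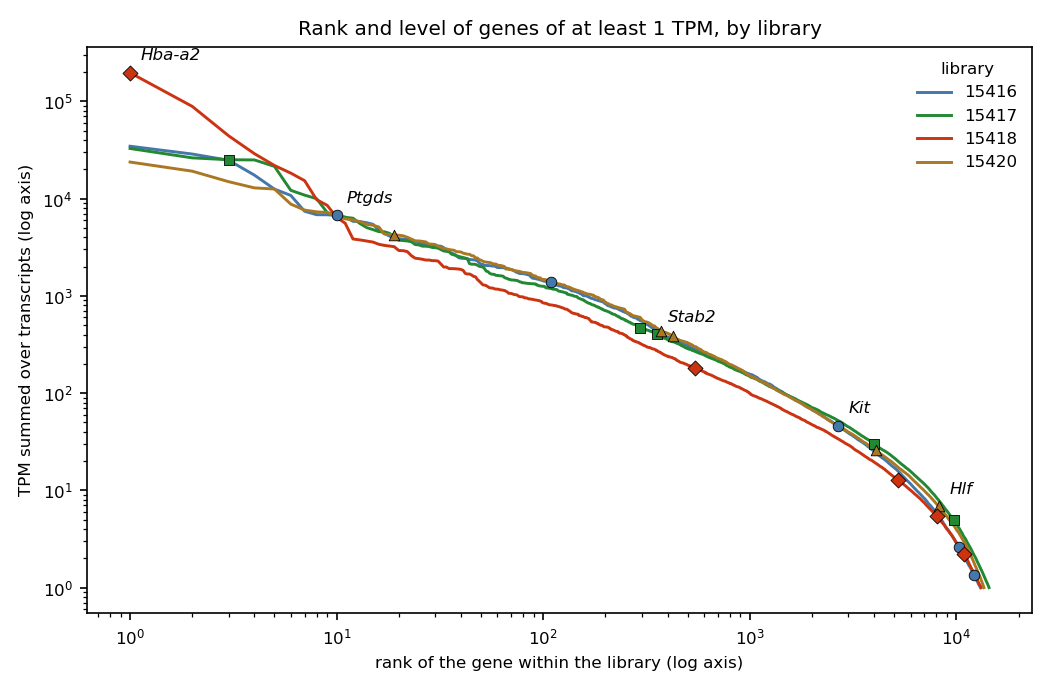
TPM of each gene of at least 1 TPM against its rank within its library (both axes log), 1 line per library, with chosen genes marked. Library 15418 starts highest, with Hba-a2 at 197055 TPM. It is still above the others at rank 5, just after its globins, at 21926 TPM. At rank 12 it lies below them, at 3849 TPM against 5849 to 6290 TPM.

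Below the top, the 4 libraries covered a like range of genes. Some 29812 genes had a TPM above 0 in at least 1 library, 10468 had at least 1 TPM in all 4, 805 at least 100 and 64 at least 1000. Stem cell genes lay far below the head of this ranking. The median rank by mean TPM was 7419 over the 20 blood stem cell genes, 4817 over the 26 transcription factors, 1897 over the 23 endothelial genes, 1315.5 over the 32 cell cycle genes and 42 over the 13 mitochondrial proteins.

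The spread of each gene between libraries was measured on 9009 genes with a mean of at least 10 CPM. The median SD of log2 CPM over the 4 libraries was 0.51, with an interquartile range of 0.35 to 0.82, and the highest and lowest library differed by over 2-fold for 58.9% of genes and over 4-fold for 21.4%. The latter share was 8.54% without library 15416, 12.7% without 15420, 18.0% without 15418, 19.4% without 15417, and 3.57% without both 15416 and 15418, where the median SD was 0.35. The common biological coefficient of variation, the square root of edgeR's dispersion, was 0.527. It was 0.437 without 15416, 0.592 without 15417, 0.545 without 15418, 0.516 without 15420 and 0.401 without both 15416 and 15418. The median SD fell with level, from 0.66 for genes at 10 to 30 CPM to 0.37 for the 90 genes at 1000 CPM or more. It was 0.43 among the 20% of genes with the shortest transcripts and 0.57 among the 20% with the longest.

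Gene lists differed widely in spread. Beside the 0.51 of all genes, the median SD was 0.20 over the mitochondrial proteins, 0.30 over the translation factors, 0.34 over 81 ribosomal proteins and 0.45 over 31 cell cycle genes. It was 0.91 over 17 blood stem cell genes, 0.85 over 24 transcription factors, 1.34 over the endothelial genes, 2.03 over 16 hepatoblast genes, 2.34 over 19 erythroid genes and 3.57 over 9 granulocyte genes. Without library 15416, on the same log2 values, it was 0.36 over the stem cell genes and 0.32 over the endothelial genes, beside 0.41 for all genes. Without 15418 it was 0.96 over the hepatoblast genes, 1.67 over the erythroid genes and 1.72 over the granulocyte genes, beside 0.52. On the CPM scale library 15416 was the lowest for 14 of the 17 stem cell genes and 20 of the 23 endothelial genes. Library 15418 was the highest for all 16 hepatoblast genes, for 18 of the 19 erythroid genes and for all 9 granulocyte genes. Members under the 10 CPM minimum are not in these counts, and a gene high in a single library could pass through that library alone.

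**Figure D3:**
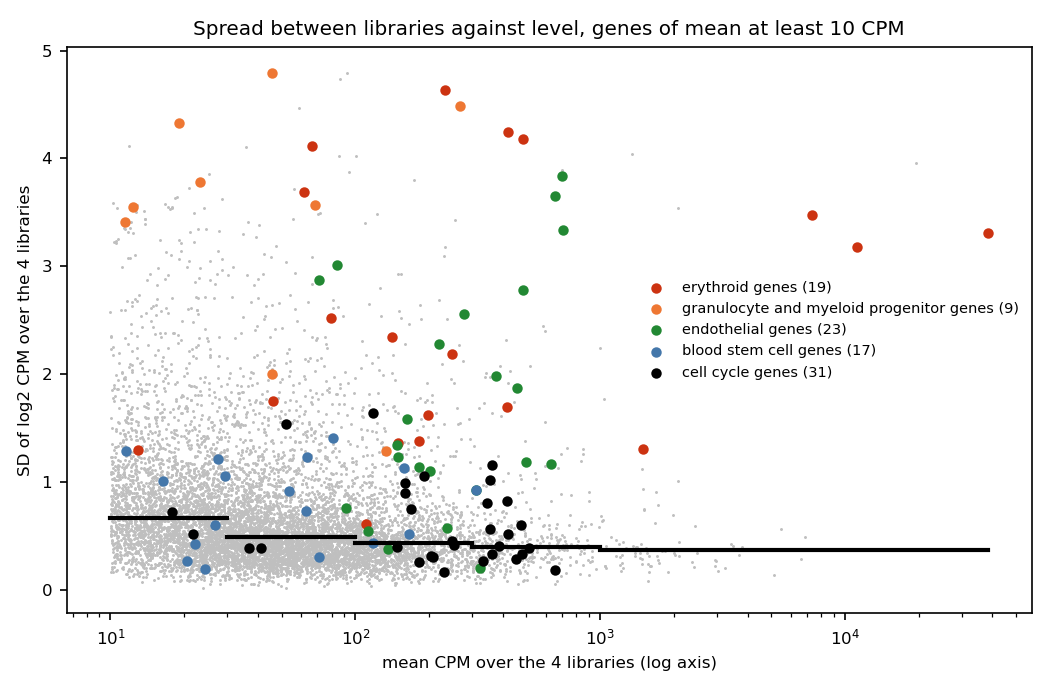
SD of log2 CPM over the 4 libraries against mean CPM (log axis) for 9009 genes (grey), with the erythroid, granulocyte, endothelial, blood stem cell and cell cycle genes coloured and the median of each level range as a black line. The medians run from 0.66 at 10 to 30 CPM to 0.37 at 1000 CPM or more, and Elane, at 4.79, is the highest of the coloured genes.

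The 10 of largest SD were Gata4 (4.79), Elane (4.79), Fam167b (4.74), Hbb-y (4.64), Mpo (4.49), Kcne3 (4.47), Ctsg (4.33), Alas2 (4.24), Slc4a1 (4.18) and Fam177a (4.12), all on the log2 CPM scale. Gata4, a transcription factor of heart, liver and sinusoidal endothelium, was at 0, 146, 130 and 93.3 CPM, from 0, 1771, 1994 and 741 estimated counts, so it was listed at 0 in library 15416 and well counted in the others. Of the 50 genes of largest SD, library 15418 was the furthest from the others for 25 and 15416 for 19. Fam177a has a near-identical copy, and the division of reads between them is uncertain. The steadiest genes were Chid1, at 51.1, 52.3, 51.7 and 52.5 CPM, Mboat7, Ppp1r12a, Tpm1, Ttc5, Cuedc2, Plpp5, Abhd10, Vcp and Adipor2, with SDs of 0.018 to 0.050. Among them Vcp, an ATPase that extracts proteins for degradation, was at 665, 670, 622 and 655 CPM.

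The libraries departed from the rest in sets of genes that partly overlapped. Library 15416 was the furthest from the median of the 4 for 3505 genes (38.9%), 15417 for 936 (10.4%), 15418 for 1540 (17.1%) and 15420 for 3028 (33.6%). Large departures were unequal in direction. More than 4-fold above the mean of the other 3 were 112, 100, 234 and 158 genes, and more than 4-fold below it were 769, 25, 44 and 339 genes. Among these large departures most were below the rest in 15416 and 15420 and above it in 15418, which did not hold for the counts of highest and lowest over all genes given above.

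Library 15416 was furthest above the rest in a group of genes that held Pltp, Ptgds, Lims2 and Wfdc1. Ptgds, the prostaglandin D synthase of meninges and brain vessels, was at 4748, 304, 5.15 and 318 CPM and ranked 10 of all genes in that library at 6718 TPM. Pltp, the phospholipid transfer protein, was at 266, 12.6, 0.59 and 7.05 CPM. For both of these genes, libraries 15417 and 15420 lay at a few percent of 15416 and 15418 at far less. Furthest below the rest in 15416 were Gata4, Fam167b, Kcne3, Gpihbp1 and Hbb-y. Gpihbp1, the capillary protein that carries lipoprotein lipase, was at 0.27, 90.0, 84.7 and 169 CPM.

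Library 15418 was highest above the rest in primary granule and late erythroid genes. Elane was at 0, 1.90, 181 and 0 CPM, Mpo at 0.47, 7.83, 1051 and 7.18 CPM, and Alas2 at 2.48, 78.1, 1593 and 4.53 CPM, with the protease gene Ctsg and the embryonic globin Hbb-y beside them. Furthest below were Apod, at 346, 22.5, 0.26 and 32.5 CPM, Ptgds, Fmod and Nbl1. These 4 were at their highest in library 15416, so the departures of the 2 libraries overlap in those genes.

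The remaining libraries departed in genes of which some were named above. Library 15417 was furthest above the mean log2 CPM of the other 3 in Tlr12, Gata4, Aplnr, Ccnjl and Zbtb9, by 2.92 to 4.25. That mean is set by a count of 0 in 15416 for Tlr12, Gata4 and Ccnjl and in 15420 for Zbtb9, and Ccnjl was in fact higher in 15420, at 40.9 against 38.9 CPM. It was furthest below the mean in Aadac, Fam177a, Tmod1, Mogat2 and Slc6a9, although Mogat2 was lower in 15416, Slc6a9 was lower in 15420 and Fam177a was at 0 in 15420 as well. Library 15420 was highest above the rest in Tnni2, Fam167b, Fabp4, Dnase1l3 and Kcne3, by 3.68 to 4.18. Dnase1l3, a secreted nuclease of sinusoidal endothelium and macrophages, was at 3.96, 767, 504 and 1515 CPM. Furthest below in 15420 were Gpsm2, Recql4, Zbtb9, Ccdc51 and Arhgdig. Gpsm2, which orients the mitotic spindle, was at 44.1, 30.5, 68.8 and 0 CPM. With a count of 0 these log2 differences depend on the prior count of 2 and set no bound.

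**Figure D4:**
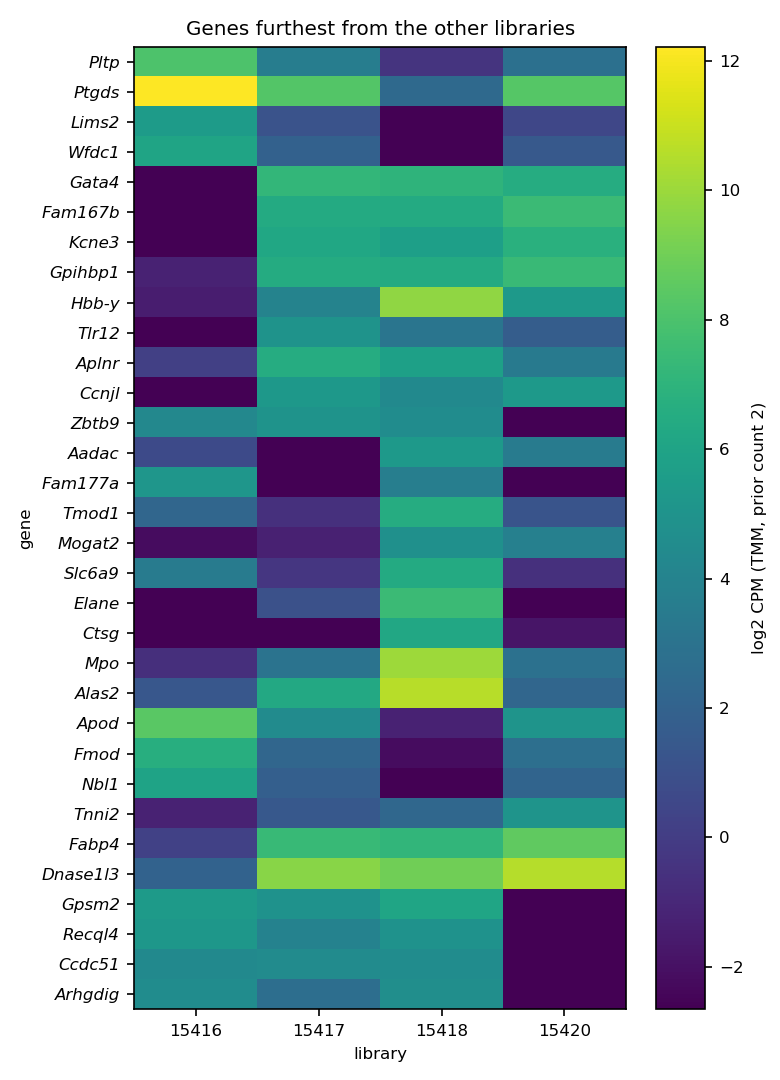
Log2 CPM (TMM, prior count 2) of the genes furthest above and below the other libraries, 1 column per library. Ptgds and Pltp are highest in library 15416, Elane, Mpo and Alas2 in 15418, and Gpsm2 is lowest in 15420.

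Counts of 0 beside high levels were found in 2 libraries. Of the 9009 genes, 5 had no count in library 15416 while all other libraries had at least 10 CPM (Ccnjl, Cpa1, Fam167b, Gata4 and Kcne3), and 5 had none in 15420 (Ccdc51, Gpsm2, Recql4, Tgif2 and Zbtb9). Cpa1 and Tgif2 were named after their values were seen. At under 1 CPM, with all others at 10 CPM or more, there were 55, 0, 3 and 26 genes. Library 15420 had the lowest depth, but 10 CPM in it, before TMM scaling, stood for 76 counts. Its median difference from the other 3 among the 20% of genes with the longest transcripts was 0.15 and that among the 20% with the shortest 0.23, whereas library 15416 was at -0.22 and 0.21. The part of transcript length in these departures was examined as an alternative, with 3562, 917, 1483 and 3001 genes furthest in each library after a correction for length.

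Most genes used the same leading transcript in all 4 libraries. Among 4726 genes of at least 10 TPM in every library, 4004 had more than 1 annotated transcript, with a median of 6. The transcript with the largest TPM was the same in all 4 libraries for 2897 of them (72.4%), and it also held over 50% of the gene's TPM in each for 2382 (59.5%). The share with a common leading transcript was 87.0% for genes of 2 to 4 transcripts, 71.3% for 5 to 9 and 52.9% for 10 or more. Where a single library differed from a common choice of the other 3, it was 15416 for 110 genes, 15417 for 96, 15418 for 137 and 15420 for 394, and without 15420 the share with a common leader was 81.8%. In those 394 genes the transcript chosen in library 15420 had a median length of 902 bases, against 1870 bases in the others, and it was the shorter in 308 (78.2%). It was annotated as protein-coding in 49.7% of the genes, against 85.3% in the others.

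Among genes of the gate, the stem cell list and the transcription factors, 14 had at least 10 TPM in every library and more than 1 transcript, and 9 of the 14 had the same leading transcript throughout. Esam-201 held 98.2, 97.5, 99.1 and 99.5% of the gene's TPM, Tal1-201 98.2, 99.5, 96.8 and 98.9%, and Gata1-201 98.1, 98.7, 94.8 and 96.7%, so for these 3 genes the level is that of a single coding transcript. Kit was another case. Its leading entry in all 4 libraries was Kit-208, annotated as a retained intron of 3175 bases, with 88.9, 63.0, 58.6 and 97.1% of the TPM, so most of the Kit level is not assigned to a transcript annotated as coding. Lmo2-208 held 89.9, 87.5, 86.4 and 96.1%. Mllt3-208 held 48.6, 45.1, 60.4 and 0.0%, with Mllt3-202 leading in library 15420, and Nfe2-201 held 64.5, 82.7, 52.7 and 28.5%, with Nfe2-205 leading there. For Cd34 it was library 15418 that differed, with Cd34-202 ahead of Cd34-201. Spi1 divided its reads among several entries, and the commonest leading one, Spi1-204, held 38.5, 38.7, 45.8 and 17.1%.

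**Figure D5:**
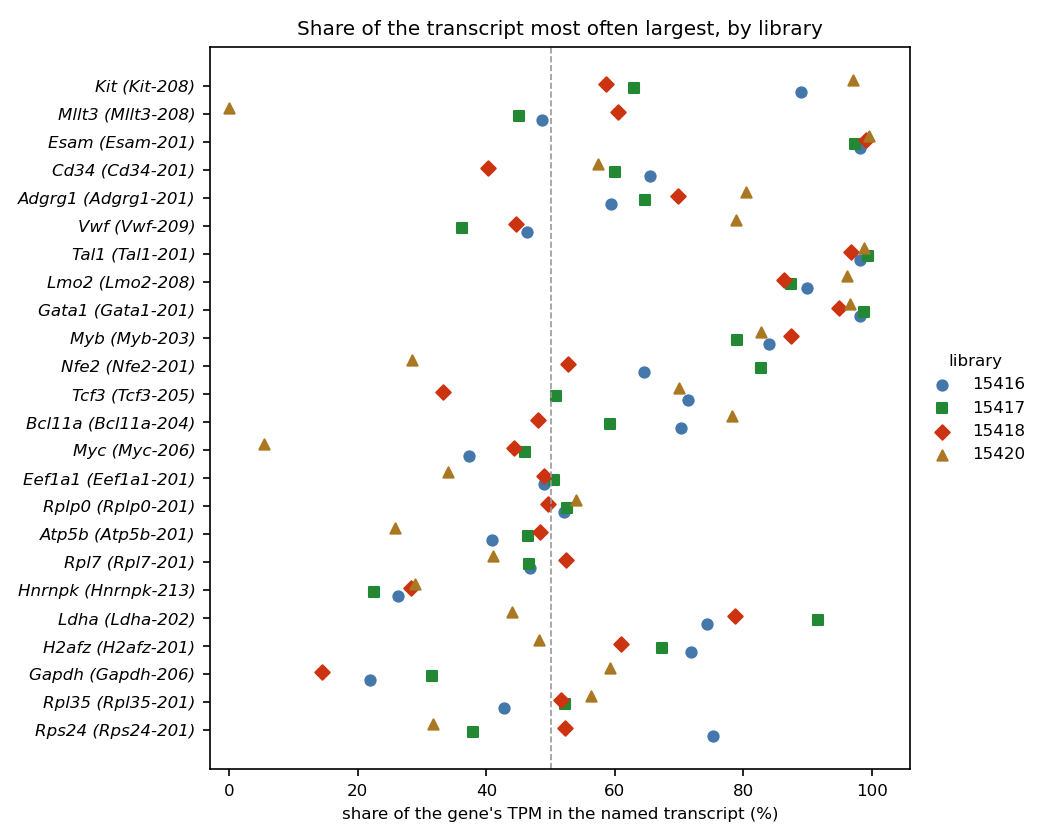
Share of a gene's TPM (%) held by the transcript most often the largest, 1 point per library, for the listed genes of at least 10 TPM in all 4 libraries with 2 or more transcripts and for the 10 highest genes without a common leader, with a dashed line at 50%. Esam and Tal1 lie near 100% in every library, and Mllt3 runs from 0.0% in 15420 to 60.4% in 15418.

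Some very abundant genes had no common leading transcript. The 10 highest of these by mean TPM were Eef1a1, Rplp0, Atp5b, Rpl7, Hnrnpk, Ldha, H2afz, Gapdh, Rpl35 and Rps24. For Gapdh, a glycolytic enzyme often used as a reference, a different transcript led in each library, none of the leading shares except the 59.2% of library 15420 exceeded 33.6%, and its leader there was a retained intron of 565 bases. Ldha-202 held 74.3, 91.6, 78.7 and 44.0%, with Ldha-214 leading in library 15420. Among the 3927 protein-coding genes with more than 1 transcript, the leader was annotated as coding in all 4 libraries for 2858 (72.8%), as a retained intron for 196, as a processed transcript for 171 and as a target of nonsense-mediated decay for 128. Reads of 75 bases seldom tell such overlapping transcripts apart, so these shares are estimates of the pseudoalignment and carry no error here.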

How the data were processed

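RNA of sorted E14.5 LT-HSCs was sequenced single-end, per the labels (bcl2fastq 2.20). The authors assigned reads with Kallisto 0.44.0 to Gencode vM16 transcripts (GRCm38) and deposited, for each library, estimated counts and TPM per transcript and, for the series, a table of counts per gene. The 6 count columns of the other genotype were not used. Of 17404 gene symbols in the count table, 161 were not matched to Gencode vM21, and 97.7% of its values lay within 1 count of the sum over the gene's transcripts. It covered 73.4 to 75.2% of TPM.

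From these, TPM was summed over transcripts per gene, and counts were scaled by TMM in edgeR 4.0.16 (R 4.3.3) to log2 CPM with a prior count of 2. Genes with a mean of at least 10 CPM entered the spread. Dominant transcripts were taken among genes of at least 10 TPM in every library. pandas 2.3.3 was used for joins. One group was described, so no test between groups was run and no p-value is given; Dixon's limit served only to mark a library far from the other 3. The scaling, SD and dispersion steps were tested on simulated counts, and the choice of the dominant transcript on a small table of known shares.

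The members and gene lists were chosen with earlier results of these data known. Named genes were the 25 highest by mean TPM, the gate genes, the leading members of each list, the 10 largest and smallest SDs, the 5 genes furthest above and below in each library, and the highest genes without a common dominant transcript. Other list members given with values, such as Mecom, Procr, Hlf, Mllt3, Gfi1b, Tal1, Lin28b, Cldn5, Car2 and Ptprc, were chosen after their values were seen. Unnamed predicted genes were counted only, and a few named genes are not reported here. Alternatives were DESeq2 1.42.0 size factors, upper-quartile and total scaling, other prior counts, filters, units and depths, a length correction, and leaving out each library.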

Additional observations from a re-analysis of the deposited data

Results flagged for a closer look

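Among 216 values (library measures, list sums and named genes) 56 had a library whose gap to the nearest of the other 3 exceeded the 95% limit of Dixon's test for 4 samples. For normally distributed values chance flags about 1 in 20 such groups. The TPM and CPM values were not log-transformed here, so that rate may not hold and is no background for the 56. Many of the genes had been named because a library was extreme, so these results are not independent of that choice. In 31 of the 56 library 15418 was the high one, and in 18 it was 15416.

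Library 15418 had 58.8% of TPM in its 100 highest genes, only 30 genes behind 50% of TPM, 36.1% of TPM in globin and 38.8% in other protein-coding genes, where it was the low one. Its list sums were high for erythroid genes (364397 TPM), granulocyte genes (1452 TPM) and hepatoblast genes (3018 TPM) and low for the X- and Y-linked genes (6.04 TPM), the latter no longer past the limit with globin left out, at 11.9, 11.9, 9.46 and 11.04 TPM. Among erythroid genes it was the high library for Hba-a2 (197055 TPM), Hbb-bs (88844 TPM), Hba-a1 (44281 TPM), Hbb-bt (29000 TPM; 28999.5 before rounding) and Alas2 (599 TPM, and 1593 CPM), and on the CPM scale also for Hbb-y (871), Slc4a1 (1817), Tmod1 (94.8) and Slc6a9 (85.8). Among granulocyte genes it was high for S100a8 (435 TPM), Mpo (337 TPM, and 1051 CPM), Elane (135 TPM, and 181 CPM) and Ctsg (59.8 TPM, and 76.3 CPM). The basophil and eosinophil genes Prg2 (29.96 TPM), Mcpt8 (11.8 TPM) and Epx (1.06 TPM), the macrophage gene Adgre1 (7.84 TPM), and Cd3g (0.0467 TPM), at very few reads, were high there as well. The hepatoblast genes were Apoa2 (615 TPM), Alb (432 TPM), Trf (412 TPM) and Apoa1 (333 TPM).

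Library 15416 was the high one for the stromal list (132 TPM) and its members Dcn (64.7 TPM), Cxcl12 (36.6 TPM), Col1a2 (11.6 TPM) and Col1a1 (2.60 TPM). It was also high for Ly6c1 (307 TPM), Lmo2 (221 TPM), Cd47 (159 TPM), the noncoding RNA Snhg3 (258 TPM) and the mast cell genes Cma1 (14.8 TPM) and Cpa3 (9.61 TPM). On the CPM scale it was high for Ptgds (4748), Apod (346), Pltp (266), Fmod (103), Wfdc1 (65.1), Nbl1 (62.5) and Lims2 (44.6). It was low for Ftl1 (3426 TPM). The flags of Lmo2, Cd47 and Ftl1 rest on TPM with globin in the total. That total lowers the other levels of the library with the most globin. These flags may therefore not hold with globin left out, which was not tested for them.

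In the remaining libraries Tnni2 was high in 15420 (32.4 CPM), Ccdc51 had no count there (0 CPM, against 21.1 CPM in the next library), and Abhd10 was low in 15417 (38.2 CPM, against 40.5 CPM), a small gap in one of the steadiest genes.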

How the results depend on the processing

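No paired analysis was possible because a single group was described and no comparison between groups was made. Of 25 genes highest by mean TPM, 11 were also among the 25 highest by TMM-scaled CPM, which does not correct for length. The number of gene lists over 5 times higher in one library than in another was 11, and 5 to 10 with 1 library left out. The median SD of log2 CPM, 0.51, became 0.70 with no filter beyond 1 count. The share of genes ranging over 4-fold, 21.4%, became 37.5% with no such filter, 13.4% at a mean of at least 100 CPM, 18.1% on log2(TPM + 1), and 8.54 to 19.4% with 1 library left out. Further alternatives were chosen after the data were seen: with 15416 and 15418 both left out, the lists over 5 times apart were 2, the median SD 0.35 and the share over 4-fold 3.57%; with short transcripts or globin left out of TPM no count moved by over 1.5 times. Genes furthest from the median, with 1 library left out, numbered 3275 to 4749 in 15416, 1679 to 2038 in 15417, 2189 to 2765 in 15418 and 2931 to 4572 in 15420, since fewer libraries share the genes. The share of genes with a common dominant transcript, 72.4%, became 77.7% by estimated counts, 84.6% at 100 TPM or more, and 74.7 to 81.8% with 1 library left out. That with the transcript also over 50% of TPM, 59.5%, became 28.5% at over 80%, 66.7% by estimated counts, 71.5% at 100 TPM or more, and 61.2 to 65.7% with 1 library left out. The TPM share of the 100 highest genes moved by less than the spread between libraries. So did the endothelial over stem cell ratio, 5.79 as a geometric mean and 4.82 to 7.73 under its alternatives. The mean number of genes detected, 12408, became 14905 at 1 count or more and 11835 after thinning. The genes common to the 4 lists of 100, 62 in number, became 60 to 70. Neither of these counts moved by over 1.5 times. With globin left out, the library with the highest sum changed for 6 of the 24 lists and that with the lowest for 6. The SDs of 20 named genes moved in 88 of 220 recomputations, the sums of 24 lists in 14 of 192, and the levels of 136 genes in none. A level or list sum counted as moved only beyond its own SD over the 4 libraries. Leaving out 1 library, or taking the median, cannot shift a mean that far. These counts of levels and sums are thus largely fixed by the rule and do not show that levels are stable. The causes were not tested. Library 15420, with 7633446 counts, limits the precision of low genes.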

Other observations

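The genes highest in library 15416 were present at a few percent of that level in 2 of the other libraries. The 25 genes furthest above the rest in 15416 included Pltp, Ptgds, Apod and the matrix genes Efemp1, Fmod and Mgp. They also included Slco1c1, Slco1a4, Mfsd2a and Abcb1a, transporters known from the capillaries of the brain. Those beyond the first 5 were named after their values were seen. In library 15417 their CPM was a median of 5.70% of that in 15416 (interquartile range 4.88 to 6.65%), and 24 of the 25 lay between 3.33 and 9.03%. In library 15420 the median was 4.28% (3.33 to 6.62%), and without Fam177a the genes ran from 1.41 to 9.37%, and in 15418 it was 0.220%. Fam177a was the exception, with 0% in 15417 and 15420 and 36.4% in 15418. Whether carry-over between libraries has a part in these proportions was not tested.

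The 25 genes furthest above the rest in library 15418 gave medians of 0.156% of its CPM in 15416, 3.40% in 15417 (interquartile range 1.66 to 5.98%) and 0.954% in 15420. For the 25 genes furthest above in 15417 the medians were 0.883% in 15416, 68.5% in 15418 and 27.9% in 15420, and for those of 15420 they were 0.476% in 15416, 45.5% in 15417 and 37.8% in 15418. The genes of each set were chosen for being high in 1 library, so that all medians lie under 100% follows from the choice.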
